A study of Homo sapiens with 1 sample.

Results

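Open chromatin was described at 10 well-known long noncoding RNA (lncRNA) genes in 786-O cells. They were MALAT1, NEAT1, GAS5 and DANCR, which most cell types express, MEG3, H19 and KCNQ1OT1, which are imprinted, and MIR31HG, MIR22HG and MIR210HG, which are linked to cancer or hypoxia. The genes were picked by name out of the 18866 lncRNA genes of the annotation. A peak was assigned to a gene when its summit lay inside the gene record or within 20 kb of either end, in hg38 coordinates. This gave 52 of the 88615 peaks on the primary chromosomes.

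ATAC-seq maps accessible chromatin with Tn5, a transposase that cuts open DNA and leaves sequencing adapters there. The sample was 1 library of 786-O, an established line from a human clear cell kidney cancer, whose cells carried an empty vector as the control for overexpression of DPF3a, a chromatin remodeling factor. There was no replicate, so no p-value is given, and every interval covers the counting error of this library only. DNA copy number was not measured, so a fold reflects openness and the number of gene copies together, and the label of the cell line was not checked by markers.

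A lncRNA acts as RNA, as a host of smaller RNAs or through its own transcription. MALAT1 and NEAT1 stay in the nucleus, where NEAT1 is the scaffold of paraspeckles, and GAS5 and DANCR carry small nucleolar RNAs (snoRNAs) in their introns. An imprinted lncRNA is expressed from the allele of only 1 parent and can silence its neighbours, while microRNA (miRNA) host transcripts are cut to release a short RNA that represses messenger RNAs. 786-O lacks functional VHL, so the hypoxia-inducible factor HIF-2α is present at normal oxygen in this line.

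The sequences around the summits that the results turn on are given first. Each is the 101 bases centred on the summit, 5′ to 3′ on the plus strand of hg38. They come from the DANCR promoter (chr4:52712325-52712425), the MALAT1 promoter (chr11:65497525-65497625), the MIR31HG promoter (chr9:21559517-21559617) and the strongest peak near MIR31HG (chr9:21576471-21576571). Capitals mark matches on either strand to GGGCGG, the binding letters of SP factors, to CCAAT, those of NF-Y, and to GGAATG, those of TEAD factors.
DANCR promoter: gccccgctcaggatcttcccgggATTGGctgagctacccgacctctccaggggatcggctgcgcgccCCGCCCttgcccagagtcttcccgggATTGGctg
MALAT1 promoter: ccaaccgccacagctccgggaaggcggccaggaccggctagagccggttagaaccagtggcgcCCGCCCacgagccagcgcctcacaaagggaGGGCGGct
MIR31HG promoter: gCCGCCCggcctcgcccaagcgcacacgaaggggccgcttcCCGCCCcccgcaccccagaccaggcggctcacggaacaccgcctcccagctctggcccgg
MIR31HG upstream peak: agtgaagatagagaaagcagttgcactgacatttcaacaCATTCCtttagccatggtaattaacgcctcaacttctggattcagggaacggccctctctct

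The promoters of MIR210HG and MIR22HG are given because both held the hypoxia response letters ACGTG and neither held a peak. They are RefSeq promoters, from 250 bases before to 50 after the gene start, on the gene's own strand, which was the minus strand of GRCh38.p14 for both (MIR210HG at chr11:568408-568707, MIR22HG at chr17:1716161-1716460). ACGTG was present in 21.4% of 35116 RefSeq promoters, and absent from that of MIR31HG, the other gene of the cancer or hypoxia-linked group. The lack of a peak at MIR210HG and MIR22HG cannot be read, as described below. Capitals mark ACGTG or its reverse complement CACGT.
MIR210HG promoter: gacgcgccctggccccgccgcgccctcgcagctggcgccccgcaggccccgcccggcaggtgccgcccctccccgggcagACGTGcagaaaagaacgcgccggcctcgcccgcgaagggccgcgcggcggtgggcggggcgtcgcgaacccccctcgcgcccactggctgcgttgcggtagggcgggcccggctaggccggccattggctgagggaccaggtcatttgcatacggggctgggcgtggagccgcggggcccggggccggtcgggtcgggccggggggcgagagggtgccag
MIR22HG promoter: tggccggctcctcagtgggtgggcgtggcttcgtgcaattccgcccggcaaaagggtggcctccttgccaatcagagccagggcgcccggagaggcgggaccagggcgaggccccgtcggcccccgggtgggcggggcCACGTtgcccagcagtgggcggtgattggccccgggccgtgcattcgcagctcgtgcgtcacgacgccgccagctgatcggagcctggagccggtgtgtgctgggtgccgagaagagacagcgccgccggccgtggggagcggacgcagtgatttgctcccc

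The mature miRNAs released from some of the hosts are given 5′ to 3′ from RefSeq with the seed, bases 2 to 8, in capitals. The seed pairs with target messenger RNAs, and no seed was shared. miR-31 comes from MIR31HG, miR-22 from MIR22HG, miR-210, a hypoxia-induced miRNA, from MIR210HG, and miR-675 from H19.
hsa-miR-31-5p: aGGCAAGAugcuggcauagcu
hsa-miR-22-3p: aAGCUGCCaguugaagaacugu
hsa-miR-210-3p: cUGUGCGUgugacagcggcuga
hsa-miR-675-5p: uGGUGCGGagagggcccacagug

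A promoter was taken to run from 1 kb before to 100 bp after each annotated transcription start site (TSS) of the gene, and a promoter peak as a summit inside it. Of the 10 genes, 6 had a promoter peak (60%, exact binomial 95% interval 26.2 to 87.8%), against 21.9% of all lncRNA genes (4125 of 18866) and 61.4% of protein-coding genes. The 6 were the housekeeping genes MALAT1, NEAT1, GAS5 and DANCR, the imprinted KCNQ1OT1, and MIR31HG. MEG3, H19, MIR22HG and MIR210HG had none. At MIR22HG and MIR210HG this cannot be read, because their sequence has a copy elsewhere in the reference, as described below. Without these genes, 6 of 8 members had a promoter peak. The members had a median of 29 annotated transcripts (9 to 91) and lncRNA genes a median of 1, so more start sites were searched at a member. With only the start of the gene record used, 3 members had a promoter peak, against 18.2% of lncRNA genes.

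Any peak in the gene or within 20 kb was present at 7 of the 10 genes, near the background of 74.2% of lncRNA genes. The genes without one were H19, MIR22HG and MIR210HG. At MIR22HG and MIR210HG a lack of peaks cannot be read, as described below, so the count of 7 is a minimum. The 52 peaks lay in 836.9 kb, or 6.21 peaks per 100 kb (exact Poisson 95% interval 4.64 to 8.15), and all lncRNA windows together held 3.60 (3.57 to 3.64). MALAT1 and NEAT1 alone held 26 of the 52. The other 8 genes held 3.59 per 100 kb (2.35 to 5.26), close to the value over all lncRNA genes. That density includes the unreadable windows of MIR22HG and MIR210HG, so it may be an underestimate. Of the 52 summits, 8 lay in a promoter of the gene itself, 25 in the gene body, 11 upstream and 8 downstream, and 12 of the 52 lay in the promoter of another gene.

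The strength of a peak was its fold enrichment, the ratio of the summit pileup plus 1 to the genome-wide background pileup plus 1, where the pileup is the depth of reads or fragments over the summit. The 52 peaks had a median fold of 9.02, and 10.8 was the median both in all lncRNA windows and over all peaks. At 18 of them (34.6%, against 35.7% of all peaks) the pileup was under 15, so these rest on a low depth. The groups differed more in the number of peaks than in the median fold. The housekeeping genes held 35 peaks, 16.3 per 100 kb (11.3 to 22.7), with a median fold of 9.28. Of these peaks, 26 lay at MALAT1 and NEAT1, which are close together on chromosome 11. GAS5 held 11.9 per 100 kb (4.38 to 26.0) and DANCR 5.85 (1.21 to 17.1), so the group density mostly reflects that 1 region. The imprinted genes held 5, 1.59 per 100 kb (0.518 to 3.72), with a median of 8.76. The cancer or hypoxia-linked genes held 12, all at MIR31HG, 3.89 per 100 kb (2.01 to 6.80), with a median of 8.24. That density includes the windows of MIR22HG and MIR210HG, where a lack of peaks cannot be read, as described below. MIR31HG alone held 5.46 per 100 kb (2.82 to 9.54).

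**Figure D1:**
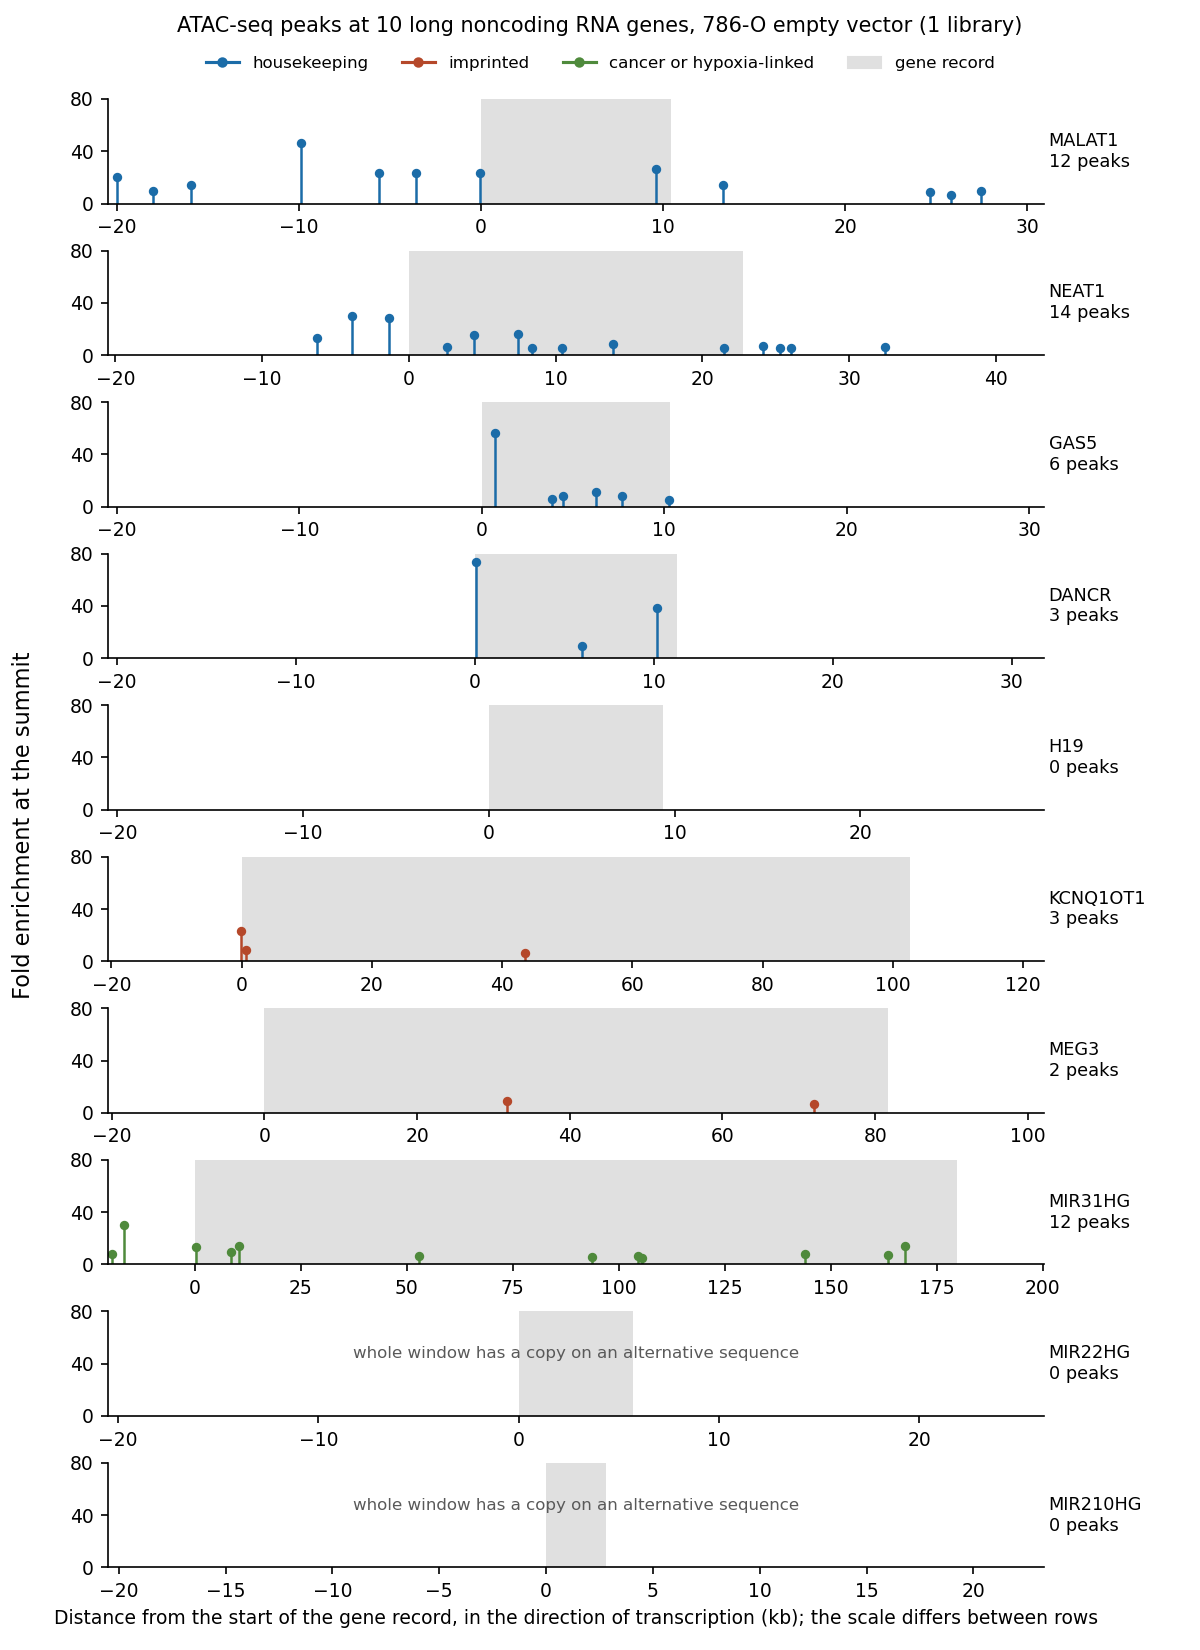
Fold enrichment of each peak (vertical axis, no unit) against the distance of its summit from the start of the gene record in kb, in the direction of transcription, in 1 row per gene with the gene record in grey. The upstream peaks of MALAT1 and NEAT1, the tall promoter peaks of GAS5 and DANCR, and the empty rows of H19, MIR22HG and MIR210HG are visible.

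MALAT1 (chr11:65497640-65508073, plus strand), a nuclear speckle RNA, had 12 peaks, or 23.8 per 100 kb (12.3 to 41.6), more than 99.5% of lncRNA windows. Its promoter peak had a fold of 23.7 (17.4 to 31.5), above 55.1% of the promoter peaks of lncRNA genes, and its summit lay 65 bp before the canonical TSS. This promoter peak was therefore near the middle of those of lncRNA genes, and the gene stood out by the number of peaks around it. Printed above, the window of the promoter peak held 2 matches to GGGCGG and was 71.3% GC. A further RefSeq promoter of MALAT1 (chr11:65498795-65499094) overlapped no peak.

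The strongest peak at MALAT1 was not at the promoter. It had a fold of 46.4 (37.3 to 57.0), was 2326 bp wide and lay 9917 bp upstream, at the divergent starts of the lncRNA genes LINC02736 and ENSG00000286756. Between it and the promoter, summits at 5616 and 3602 bp upstream both had a fold of 23.2 (17.0 to 31.0), and both windows held the AP-1 letters TGACTCA or TGAGTCA. Further upstream lay peaks of 14.4, 9.28 and 20.1, the last only 10 bp inside the edge of the window at the start of ENSG00000289883. The 6 upstream peaks and the promoter thus formed a run in which 5 of 7 exceeded a fold of 20.

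Inside MALAT1 only 1 peak lay beyond the promoter. Its fold was 26.3 (19.6 to 34.5), and its summit lay 9597 bp from the start, close to the end where the antisense RNA TALAM1 overlaps. The 4 downstream peaks ranged from 6.70 to 14.4. Peaks covered 25.6% of the MALAT1 window.

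NEAT1 (chr11:65422774-65445540, plus strand) had 14 peaks, 22.3 per 100 kb (12.2 to 37.4), more than 99.3% of lncRNA windows. Its counted promoter peak was weak, with a fold of 6.18 (3.34 to 10.7), and lay at the start of an internal transcript 2571 bp downstream of the canonical TSS. The canonical TSS itself was covered by another peak, 2442 bp wide (chr11:65421024-65423465), whose fold was 28.3 (21.4 to 36.8) and whose summit lay 1384 bp upstream. That summit is outside the promoter as defined and 34 bp upstream of the lncRNA gene ENSG00000290057. With peak overlap in place of the summit, the value at the NEAT1 promoter is therefore 28.3, and the value of 6.18 depends on the summit rule.

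The strongest NEAT1 peak had a fold of 29.9 (22.8 to 38.6) at 3879 bp upstream of the gene record, and 1 of 13.4 (8.85 to 19.5) lay at 6280 bp upstream. The 6 gene body peaks ranged from 5.15 to 16.5. Of the 4 downstream peaks none exceeded 6.70. The gene was thus open most strongly before its start, with lower peaks along the transcribed part, and peaks covered 22.5% of the window.

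The neighbourhood of MALAT1 and NEAT1 was itself rich in peaks. Within 1 Mb there were 166 summits around MALAT1 and 165 around NEAT1, and between 49 and 89 around the other members. The windows of both genes do not overlap, so no peak was counted at both.

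GAS5 (chr1:173858559-173868882, minus strand), a host of snoRNAs, had 6 peaks, 11.9 per 100 kb (4.38 to 26.0). Its promoter peak had a fold of 56.2 (46.2 to 67.7), above 92.5% of the promoter peaks of lncRNA genes. The summit lay 191 bp before the canonical TSS. The same summit lay 98 bp inside ZBTB37, the protein-coding gene that starts in the opposite direction, so the peak belongs to both promoters. Its window held the E-box CACGTG, which contains the letters ACGTG on both strands, and 3 matches to GGGCGG. The other 5 peaks ranged from 5.15 to 10.8 and lay inside the gene, including another promoter peak of 6.18 at an internal transcript.

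DANCR (chr4:52712325-52723623, plus strand), also a snoRNA host, had only 3 peaks, 5.85 per 100 kb (1.21 to 17.1), but the highest promoter fold of the 10 genes. The value was 73.7 (62.1 to 86.8), above 97.7% of the promoter peaks of lncRNA genes and higher than 99.1% of all peaks. The summit was 126 bp upstream of the canonical TSS and also lay 19 bp upstream of LINC01618, which runs in the same direction, and within 1 kb of the starts of MIR4449 and SNORA26. The window printed above was 69.3% GC and held 2 matches to CCAAT and 1 to GGGCGG. A further strong peak of 38.1 (30.0 to 47.8) lay 10197 bp into the gene at the start of the antisense lncRNA ENSG00000286161, and the remaining peak, of 9.28 (5.62 to 14.5), lay between them. Openness at DANCR thus rested on a pair of strong summits, each shared with another transcript.

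**Figure D2:**
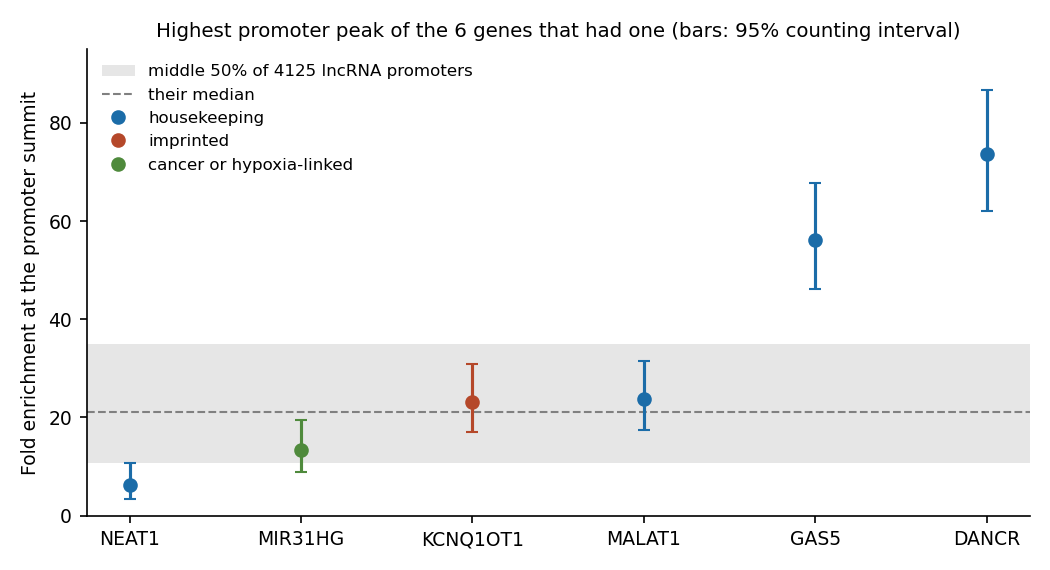
Fold enrichment at the highest promoter summit (vertical axis, no unit) of the 6 genes that had a promoter peak, with bars for the 95% counting interval and a band for the middle 50% of 4125 lncRNA promoters (10.8 to 35.0, median 21.1). GAS5 and DANCR lie above the band, MALAT1, KCNQ1OT1 and MIR31HG inside it and NEAT1 below it. The peak of 28.3 that covers the canonical TSS of NEAT1 is not drawn, because its summit lies outside the promoter.

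By highest promoter fold under the summit rule the order was DANCR, GAS5, MALAT1, KCNQ1OT1, MIR31HG and NEAT1. The place of NEAT1 depends on that rule, as peak overlap gives it 28.3, above the 23.7 of MALAT1. The intervals of DANCR and GAS5 overlapped, those of MALAT1 and KCNQ1OT1 were nearly the same, and those of MIR31HG and NEAT1 overlapped. The interval of GAS5 lay wholly above that of MALAT1. MIR31HG overlapped MALAT1 and KCNQ1OT1 at the edge of its interval.

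KCNQ1OT1 (chr11:2597308-2700003, minus strand), an antisense RNA inside KCNQ1 that silences neighbouring genes on the paternal chromosome, had 3 peaks, 2.10 per 100 kb (0.434 to 6.14). The promoter peak had a fold of 23.2 (17.0 to 31.0), above 54.1% of lncRNA promoters, and its summit lay 111 bp before the canonical TSS. The other peaks were 8.76 (5.23 to 13.9) at 662 bp and 6.70 (3.71 to 11.3) at 43.6 kb into the gene. Most of the 102.7 kb gene was without a peak.

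MEG3 (chr14:100779410-100861031, plus strand), a maternally expressed RNA of the DLK1 domain, had 2 peaks and no promoter peak, 1.64 per 100 kb (0.199 to 5.94). Their folds were 8.76 (5.23 to 13.9) at 31.8 kb and 6.70 (3.71 to 11.3) at 71.9 kb into the gene. The nearest summit to any of its 50 transcript starts was 4063 bp away. Of these transcripts, 27 start within chr14:100826098-100826195, and the nearest summit to that cluster was 14.9 kb away.

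H19 (chr11:1995166-2004552, minus strand), the maternally expressed host of miR-675, had no peak, which allows up to 6.07 per 100 kb. The nearest summit was 51.0 kb from the gene. The peak-free stretch around it was 133.3 kb long, from a summit of fold 9.79 (6.01 to 15.2) to 1 of 17.0 (11.8 to 23.8), and held the start of 1 protein-coding gene, MRPL23. None of the window had a copy on an alternative sequence of the reference, which sets H19 apart from the other members without a peak.

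The other genes of these imprinted domains were also mostly without a promoter peak. Of 12 listed, 2 had 1, and both were weak, 6.18 (3.34 to 10.7) at SLC22A18 and 8.24 (4.84 to 13.3) at MEG8. IGF2, the growth factor next to H19, had its nearest summit 1735 bp from a start, and DLK1 had its nearest 20.2 kb away. The genes CDKN1C, SLC22A18 and PHLDA2 lay wholly, and KCNQ1 to 20.1%, in sequence with an alternative copy, where peaks are nearly absent in this list. The share in the list was 16.7% (2.09 to 48.4%), and the background for lncRNA and protein-coding genes was 21.9% and 61.4%.

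MIR31HG (chr9:21380073-21559891, minus strand), the host gene of miR-31, had 12 peaks over its 179.8 kb and flanks, 5.46 per 100 kb (2.82 to 9.54). The promoter peak had a fold of 13.4 (8.85 to 19.5), with the summit 282 bp downstream of the canonical TSS, above 30.9% of lncRNA promoters. Its window, printed above, was 78.2% GC with 2 matches to GGGCGG. Another promoter peak of 5.15 lay at an internal transcript.

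The strongest peak near MIR31HG lay 16.6 kb upstream of the gene, with a fold of 30.4 (23.2 to 39.2) and a summit window of 44.6% GC that held GGAATG once. Its interval did not overlap that of the promoter. The 8 gene body peaks ranged from 6.18 and 5.67 in the middle of the gene to 13.9 near each end. The miR-31 hairpin was 5075 bp from the nearest summit.

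MIR31HG lies in 9p21, and of 7 listed neighbours only MTAP had a promoter peak (fold 32.5, interval 25.0 to 41.5). Of these neighbours 6 are protein-coding, a type with a background of 61.4%. CDKN2A and CDKN2B, which encode cell cycle inhibitors, had no summit around them over 243.9 kb, a stretch 345 kb from MIR31HG with no alternative copy. A deletion of this DNA and closed chromatin cannot be told apart from a peak list. Peaks at MIR31HG itself show that its DNA was present in this library.

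MIR22HG (chr17:1711447-1717174, minus strand), the host of miR-22, and MIR210HG (chr11:565657-568457, minus strand), the host of miR-210, had no peak. A count of 0 allows up to 6.56 and 7.01 per 100 kb. The nearest summit was 62.8 kb from MIR22HG and 114.5 kb from MIR210HG. The peak-free stretches measured 217.1 kb and 244.0 kb, and held the starts of 8 and 11 protein-coding genes, among them PRPF8, a core splicing factor, and HRAS.

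For both genes the whole window lay in sequence that hg38 also carries on an alternative sequence. The copied segment was 197.7 kb at MIR22HG (chr17:1570021-1767725) with a divergence of 0.02%, and 208.3 kb at MIR210HG (chr11:470371-678672) with a divergence of 0.06%. Neither segment held a summit. On the 6 chromosomes that carry the members, 58 such segments spanned 19.3 Mb and held 16 summits, 0.0830 per 100 kb (0.0474 to 0.135), while the remaining sequence held 3.03 (3.00 to 3.07). Peaks on alternative sequences show that the authors' reference held them, and the authors removed reads of low mapping quality, and a read that matches 2 places equally well has a low mapping quality. At MIR22HG and MIR210HG closed chromatin and removed reads therefore cannot be told apart, and their promoters with ACGTG printed above cannot be called closed. The 8 members elsewhere held 6.95 peaks per 100 kb (5.19 to 9.11).

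**Figure D3:**
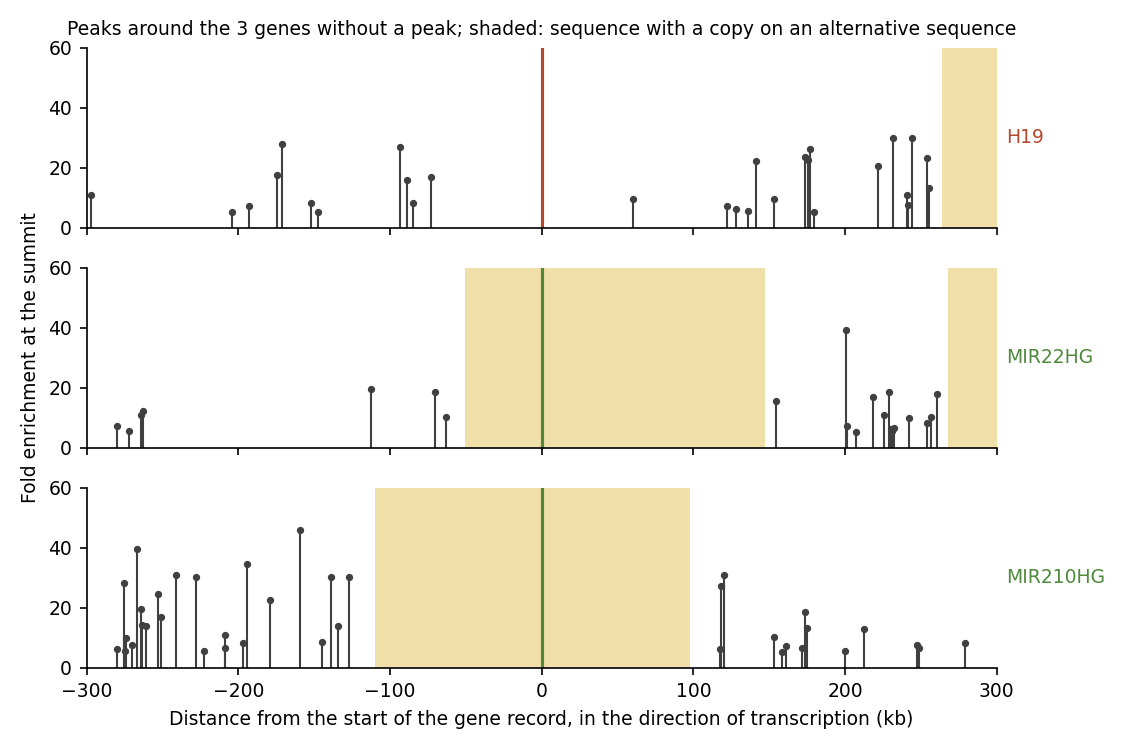
Fold enrichment of the peaks (vertical axis, no unit) within 300 kb of the gene start (horizontal axis, kb in the direction of transcription) for H19, MIR22HG and MIR210HG, with sequence that has an alternative copy shaded. The gaps at MIR22HG and MIR210HG follow the shaded segments, and the gap of 133.3 kb at H19 is not shaded.

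**Figure D4:**
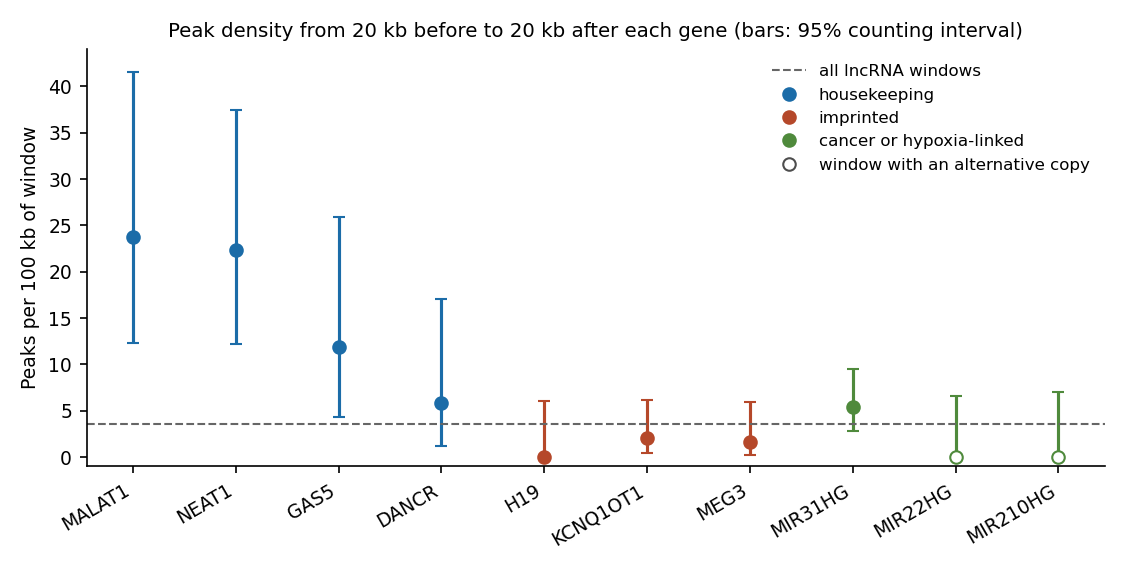
Peaks per 100 kb of window (vertical axis) for each gene, with bars for the 95% counting interval, open circles for windows with an alternative copy and a dashed line at 3.60 for all lncRNA windows. MALAT1, NEAT1 and GAS5 have intervals wholly above the line, and the other 7 intervals include it.

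Motif matches were counted in the 101 bases around each summit, on both strands, for the 52 peaks and for all 88615. GGGCGG was present in 11 windows (21.2%, 11.1 to 34.7%, against 8.45% of all windows), and CCAAT also in 11 (21.2%, against 12.8%). AP-1 letters were present in 4 (7.69%, 2.14 to 18.5%, against 15.7%), and GGAATG in 3 (5.77%, against 9.41%). All 4 AP-1 windows were at housekeeping genes, which held 35 of the 52 windows, so no difference between groups can be read from them. ACGTG was present in 4 (7.69%, against 7.04%), at MALAT1, NEAT1 and GAS5. None of the 12 windows at MIR31HG held it, which is too few windows to read an absence at a share of 7.04%. Among RefSeq promoters 21.4% of 35116 held ACGTG. They run from 250 bases before to 50 after the start, longer than the 101 bases, so the shares are not comparable. The 8 members found in that table included MIR22HG and MIR210HG, which held it, while NEAT1 and KCNQ1OT1 had no entry.

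The core motif of CTCF, the insulator protein that separates imprinted neighbours, was matched in 3 of the 52 windows (5.77%, 1.21 to 15.9%, against 2.23%). The search reached 50 bp to either side of a summit, so any match had to lie close to one. The 3 sites lay up to 36 bp from a summit. They are on the plus strand at chr11:65416521-65416540 for NEAT1, chr14:100851312-100851331 for MEG3 and chr9:21466105-21466124 for MIR31HG, with the matched letters in capitals.
NEAT1 site: gcggCCAGCAGGGGGCagct
MEG3 site: ttgcCCACCAGGGGGCagca
MIR31HG site: tgaaCCAGTAGAGGGCagaa

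The peaks at these sites had folds of 13.4 at NEAT1, 6.70 at MEG3 and 5.67 at MIR31HG. Of 3503 such matches on the 6 chromosomes, 28.1% had a summit within 100 bp. A further match in KCNQ1OT1 lay 6808 bp from the nearest summit, and the 2 at MIR210HG lay in the copied segment. The H19 window held no match to this strict core. CTCF sites with other letters were not searched, so this does not show that the window lacks them.

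Related genes were read beside the members. Of 14 snoRNA hosts, the class of GAS5 and DANCR, 13 had a promoter peak (92.9%, 66.1 to 99.8%, against 21.9% of all lncRNA genes). The folds ran from 14.4 to 54.1, with a median of 38.6. These hosts included SNHG1 at 46.9 (37.8 to 57.5) and ZFAS1 at 54.1 (44.3 to 65.4). The folds of GAS5 and DANCR lay above all 13, but their intervals, 46.2 to 67.7 and 62.1 to 86.8, both overlapped that of ZFAS1. SNHG32 had none, with its nearest summit 773 kb away, and its chromosome was not searched for alternative copies.

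Of 18 miRNA hosts, the class of MIR31HG, 10 had a promoter peak (55.6%, 30.8 to 78.5%, against 21.9% of all lncRNA genes), from 13.4 to 49.5. MIR17HG, the host of an oncogenic miRNA cluster, had a fold of 31.9 (24.6 to 40.9), and the promoter fold of MIR31HG, 13.4, equalled the lowest of these, at MIR193BHG and MIR23AHG. Of 11 other cancer-linked genes, 10 annotated as lncRNA and TUG1 as protein-coding, 9 had a promoter peak (81.8%, 48.2 to 97.7%), from 10.3 at UCA1 to 67.5 at LINC-PINT. HOTAIR, a HOX cluster RNA, had none in its promoters, though a summit lay 197 bp from a start. Over the 5 lists 35 of 62 genes had a promoter peak (56.5%, 43.3 to 69.0%). Of the 62, 46 are annotated as lncRNA and 16 as protein-coding, and the background was 21.9% and 61.4%. With only the start of the gene record used, 20 of the 62 had a promoter peak, against 18.2% of lncRNA genes.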

How the data were processed

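The authors used fastp for trimming and Bowtie2 2.3.4.3 for alignment to hg38, removed mitochondrial reads, reads of mapping quality under 30 and duplicates, and called peaks with MACS2 2.2.6 at q 0.05 without a local background, per the study's methods. The Bowtie2 and MACS2 versions are those in the submitters' processing notes. The study's methods give none for ATAC-seq and other versions for ChIP-seq. A Tn5 shift is not given in the sources used here. The deposited values were the score, the fold ratio over the genome-wide background, and the −log10 p-value and −log10 q-value of each peak. The lowest deposited score was 52, so the list had been filtered after calling. Peak names carry a wild-type tag and the label says empty vector; the label was used.

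Each fold was the summit pileup plus 1 over the background pileup plus 1. With a background pileup of 0.941, every summit pileup recovered in this way was whole (to within 1.69e-05), from 9 to 300. This is the depth behind each value. Total reads are unknown. Fold intervals are exact Poisson 95% intervals of the pileup, shares have Clopper-Pearson intervals, and a count of 0 has an upper limit of 3 counts. All cover counting error only, and PCR copies are not independent molecules.

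Genes and TSSs came from GENCODE release 44. Alternative copies were alignments of at least 10 kb and at most 5% divergence by minimap2 2.31, checked at single peaks with BLAST 2.17.0. The other steps used Python 3.11.15, pandas 2.3.3 and scipy 1.17.1. Interval and window functions were tested on simulated data. The members and lists were chosen with earlier results of these data known. All 10 members are named, with the number of peaks, the promoter peak of highest fold (or nearest summit) and the strongest peak. Other genes are named where a window summit lies in their promoter or as part of a related list. Alternatives were other score minimums, promoter and gene windows, TSS choices and peak overlap. Peaks outside the primary chromosomes were used only for the copies. A neighbouring gene's promoter and the sequence of 1 summit window are not reported here.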

Additional observations from a re-analysis of the deposited data

Results flagged for a closer look

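A peak lay on the alternative copy of the MIR210HG region, outside the primary chromosomes used above, where the primary copy held no summit. It had a fold of 6.699 (3.71 to 11.3) from a pileup of 12 and was 246 bp wide. Its sequence matched chr11:655470-655712 of the primary chromosome over 100% of its length at 98.8% identity, 87.0 kb from MIR210HG. It is not a peak of the MIR210HG promoter. No peak lay on the alternative copy of the MIR22HG region.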

How the results depend on the processing

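The number of members with a promoter peak was 6 as reported, 5 at a score above 100 or above 200, 4 with the canonical TSS and 3 with the start of the gene record. The share of lncRNA genes moved from 21.9% to 18.8% and 16.0% at these score minimums, 28.1% with 1 kb to both sides, 37.0% with 2.5 kb, 18.2% with the gene record, 18.7% with the canonical TSS and 28.1% with peak overlap. Related genes with a promoter peak fell from 35 to 20 with the gene record. The median promoter fold of the members moved from 23.4 to 39.9 with the canonical TSS. Peaks in member windows numbered 34 and 21 at the score minimums and 31 in the gene record alone, against 52, and the density was 4.06 and 2.51 per 100 kb at the score minimums. Without MALAT1 and NEAT1, an alternative chosen after seeing the data, the density was 3.59, and without the 2 members in copied sequence, also chosen then, it was 6.95. Over the 6 members with a promoter peak and the alternatives there were 42 cases. In 7 the promoter peak was lost, for NEAT1 at both score minimums, the canonical TSS and the gene record, for MIR31HG with the canonical TSS and the gene record, and for GAS5 with the gene record. Of the 35 folds that remained, 33 kept their value within the counting interval, and the 2 that moved were both NEAT1 at 28.3. No paired analysis was possible because the only group had 1 library. Depth limits peaks near the minimum: the lowest pileup was 9, and H19 or MEG3 may hold openness below it.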
